A study of Mus musculus with 6 samples.

Results

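The Rab GTPases measured here are the genes whose name on the array is Rab followed by a number up to 43, with or without a letter or subfamily suffix; genes for their partners were left out. The array carried 81 such probes for 56 genes. A probe was kept when its spot was marked well above background on all 3 arrays of a group, which left 66 probes for 47 genes, set against 26587 kept probes and 19575 features over the whole array. Of the 47 genes, 46 were well above background on all 6 arrays, and the exception was Rab3b, with 5 arrays. The 9 genes not kept were Rab17, Rab25, Rab26, Rab27b, Rab30, Rab36, Rab39b, Rab40b and Rab9b, and 10 of their 12 probes were well above background on 0 arrays. Several of these, such as Rab17 and Rab25, are known from epithelial cells, and others, such as Rab26 and Rab9b, from secretory or neural tissue.

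Both groups were bone marrow-derived macrophages of C57BL/6 mice, grown for 7 days in RPMI with 10% FBS and 20% L929-conditioned medium, which supplies the macrophage growth factor M-CSF. The 3 control and 3 treated samples were taken at 6 h, the treated ones after exposure to 100 µM ADP, a nucleotide that cells release and that macrophages sense through P2Y receptors. Per the submitters, the 3 experiments were independent and used different donors, and each sample was read on 1 one-colour Agilent array.

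Rab proteins are small GTPases that act as switches on membranes. An exchange factor loads a Rab with GTP on a given membrane, the loaded Rab recruits effectors that move, tether or fuse the vesicle, and a GTPase-activating protein ends the cycle, after which a GDI chaperone takes the prenylated protein off the membrane. In macrophages these switches are known for the uptake of particles, the maturation of phagosomes, the recycling of receptors and the secretion of cytokines.

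A level here is a log2 signal minus the log2 of its array's 75th percentile, so 0 stands for that percentile, and a difference is the ADP mean minus the control mean on the log2 scale. Between 50.3% and 51.9% of the 59305 spots of an array were well above background, the 75th percentile lay between 455 and 549 signal units, and 0 spots were saturated. Arrays control 1, control 2 and ADP 1 lay on 1 slide, called slide 1 here, and control 3, ADP 2 and ADP 3 on the other, called slide 2. The cell type label was checked against macrophage markers: 9 of 10 were kept, among them Csf1r at 8.43 ± 0.46 (SD, n = 3) in control, and Cd163 was not. The summed signal of 5 neutrophil markers, in multiples of the 75th percentile, was 22.5 to 24.4 in control and 26.1 to 31.7 with ADP, while that of 5 B cell markers was 5.45 to 7.93 and 4.76 to 5.20. The summed ranges of T cell, dendritic cell, mast cell, erythroid and fibroblast markers overlapped between groups, and several of their markers were kept: Cd3e, Cd4 and Lck of T cells, Cd79a and Cd79b of B cells, Flt3, Ccr7 and Siglech of dendritic cells, Tpsb2 of mast cells and 5 of 6 of fibroblasts. Siglech read 5.93 ± 1.04 (SD, n = 3) in control and 6.59 ± 1.21 with ADP. Ccr7 differed by 1.00 ± 0.34 (SE) and the neutrophil marker S100a8 by 0.32 ± 0.12, with unadjusted p of 0.0232 and 0.0329 by limma. Cd3d, Cd3g, Cd8a, Ms4a1, Pax5, Mcpt8, Cpa3, Fcer1a, Hba-a1 and Alas2 were among the markers not well above background. The part of these cells in the Rab differences was not tested. In bulk RNA, fewer cells that carry a transcript and less of it per cell cannot be told apart.

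Across the Rab genes the difference between ADP and control was small. The differences ran from -0.54 (Rab19) to 0.40 (Rab3b), with 23 genes above 0 and 24 below, and their median was -0.0020, beside 0.0044 over all features. The difference was under 0.5 in size for 45 of the 47 genes, which is 95.7%, beside 90.4% of all features. The Rab genes were brighter, with a median level of 3.22 beside 0.55 over all features. How far the size of a difference depends on level was not tested. None of the Rab genes reached a 2-fold difference, which 1.51% of all features did. By limma with Benjamini-Hochberg adjustment over all 19575 features, 0 Rab genes had an adjusted p under 0.05, and 0.0% of all features did; the smallest adjusted p of a Rab gene was 0.337. At an unadjusted p under 0.05 there were 3 Rab genes (6.38%), beside 12.7% of all features: Rab8b was higher with ADP, where the background is 6.55%, and Rab19 and Rab24 were lower, where it is 6.18%. The split was 0 higher and 2 lower with quantile normalization, beside 1210 and 1353 of the 19575 features. Without control 1 or without ADP 3 the count of Rab genes was 0, and without control 3 it was 1, with no share over all features given for these fits.

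The precision was enough to bound most of these differences. The 95% interval of the difference lay within 1 log2 unit of 0, which is within a 2-fold difference, for 43 of the 47 genes. It lay within 0.5 for 25 of them. The residual SD of a Rab gene between arrays of one group was 0.16 in the median, beside 0.20 over all features. The control and ADP arrays did not overlap for 8 Rab genes (17.0%), beside 19.4% of all features. Rab8b and Rab28 were the 2 with higher ADP arrays (9.67% of all features), and Rab24, Rab6b, Rab11b, Rab31, Rab15 and Rab34 the 6 with lower ones (9.72% of all features).

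**Figure D1:**
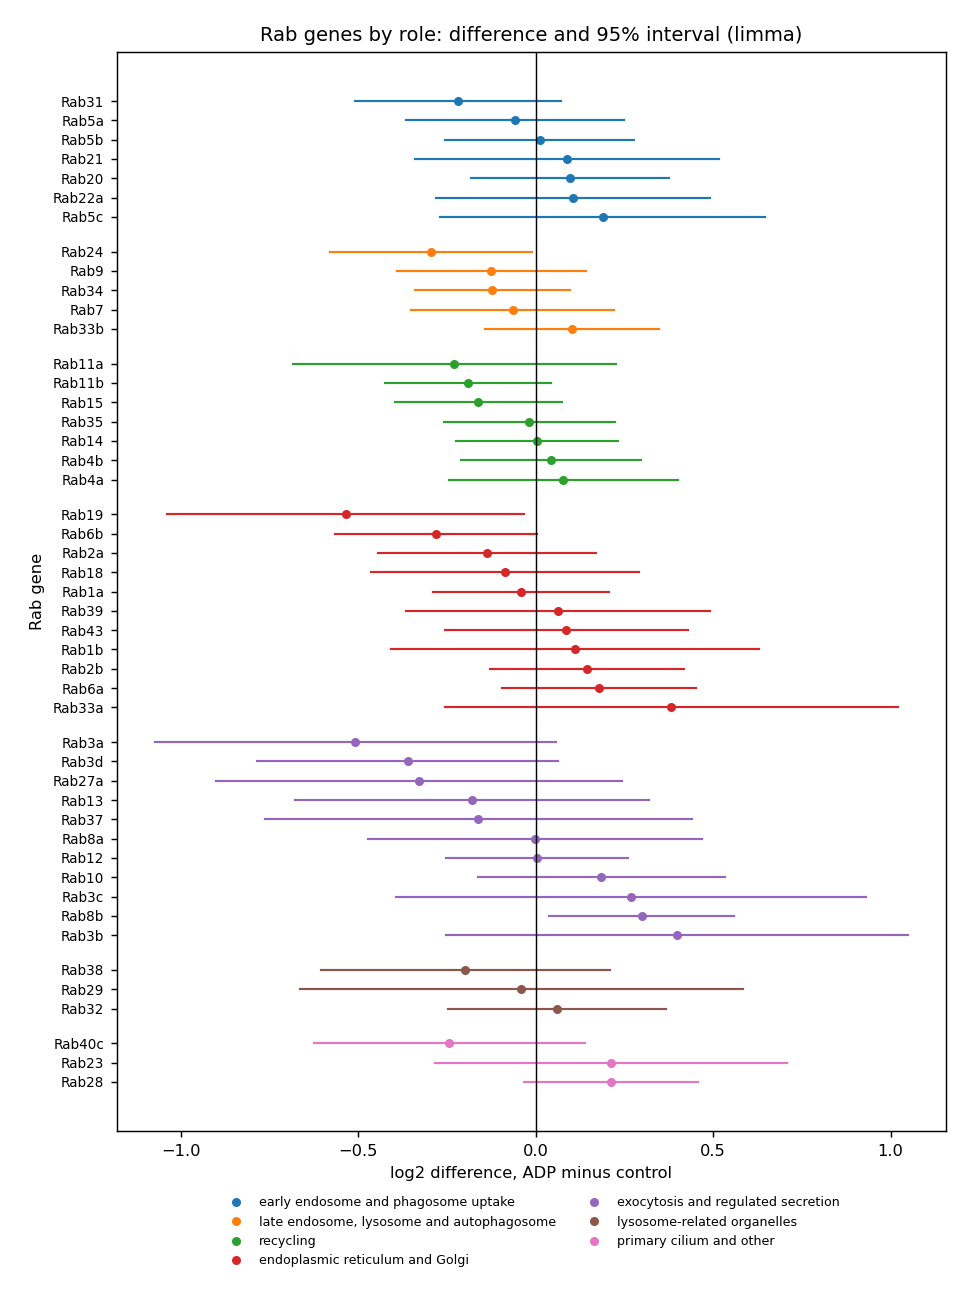
Log2 difference, ADP minus control, of each of the 47 Rab genes (points) with its 95% interval from limma (lines), n = 3 arrays per group, coloured and grouped by role. The points lie between -0.54 and 0.40, and the interval excludes 0 for Rab8b, Rab19 and Rab24, none of which passed adjustment over all features.

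The Rab genes of the early endosome and of particle uptake comprised 7 kept genes. Of these, 0 had an unadjusted p under 0.05 by limma, beside 12.7% of all features. Of the 7, 5 lay above 0 and 2 below, with a median difference of 0.089. Rab5 proteins drive the fusion of early endosomes and sit on newly formed phagosomes, and all 3 of their genes were measured. Rab5a read 4.22, 4.19 and 4.13 on control arrays 1 to 3 and 4.33, 3.94 and 4.09 on ADP arrays 1 to 3. Rab5b read 4.07, 4.09 and 4.06 in control and 3.96, 4.06 and 4.24 with ADP. Rab5c read 5.82, 6.22 and 6.43 in control and 6.18, 6.28 and 6.58 with ADP. For each of the 3 genes the ADP arrays spread on both sides of at least 1 control array, so the groups overlapped. Their differences were -0.059 ± 0.13 (SE), 0.011 ± 0.11 and 0.19 ± 0.19, with 95% intervals of -0.37 to 0.25, -0.26 to 0.28 and -0.27 to 0.65.

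Rab5b had 4 kept probes, more than any other Rab gene here, and they lay at differences from 0.011 to 0.30. The one at the upper end is shown because its 60 bases do not come from 1 stretch of the genome: it reaches over 1800 bases on the minus strand (mm9 chr10:128116670-128118469), as a probe over an exon junction does. It is given 5′ to 3′, all in lower case, and has a reading frame with no stop codon.
Rab5b: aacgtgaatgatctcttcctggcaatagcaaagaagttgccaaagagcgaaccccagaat
On this probe the difference was 0.30 ± 0.13, with an unadjusted p of 0.0536, by limma over all kept probes. The probe that stands for the gene (chr10:128114252-128114311) had the difference of 0.011 given above.

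The other early endosome genes were Rab20, Rab22a, Rab31 and Rab21. Rab20, found on maturing phagosomes, read 1.55, 1.63 and 1.86 in control and 1.76, 1.77 and 1.79 with ADP. Its 3 ADP arrays lay within the range of the control arrays, at a difference of 0.096 ± 0.12. Rab22a, which acts in recycling from early endosomes, read 2.85, 2.84 and 2.62 in control and 3.15, 2.63 and 2.84 with ADP, a difference of 0.10 ± 0.16. Without ADP 1, the highest array, it was -0.036. Rab31 carries cargo from the Golgi to endosomes, and it read 3.97, 3.89 and 4.23 in control and 3.86, 3.77 and 3.81 with ADP. All 3 ADP arrays lay below all 3 control arrays, by 0.22 ± 0.12 in the mean, with an unadjusted p of 0.115 and an adjusted p of 0.532 by limma. Without control 3 the difference was -0.12. Rab21, an endosomal Rab that moves integrins, differed by 0.089 ± 0.18.

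Of the 5 genes of the late endosome, lysosome and autophagosome, 4 lay below 0. Only 1 of the 5 (20.0%), Rab24, had an unadjusted p under 0.05 by limma, beside 12.7% of all features. Rab24, linked to autophagosomes, read 3.91, 3.79 and 4.11 in control and 3.68, 3.66 and 3.57 with ADP. The groups did not overlap: every ADP array lay below every control array, with means of 3.64 ± 0.06 and 3.94 ± 0.16 (SD, n = 3). That is a 1.23-fold lower level with ADP, at a difference of -0.30 ± 0.12, an unadjusted p of 0.0435 and an adjusted p of 0.377 by limma. Rab7 controls the fusion of late endosomes and phagosomes with lysosomes. It read 3.78, 3.84 and 3.55 in control and 3.73, 3.67 and 3.57 with ADP, all 3 ADP arrays within the control range, at a difference of -0.066 ± 0.12 (95% interval -0.35 to 0.22). Within slide 2 the sign turned, to 0.072.

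Each of these genes had 1 kept probe, and both are shown since the contrast between them rests on them alone. The Rab24 probe lies on the minus strand at mm9 chr13:55421675-55421734 and the Rab7 probe on the minus strand at chr6:87950462-87950521. Each has a reading frame with no stop codon, and they are printed 5′ to 3′ in lower case.
Rab24: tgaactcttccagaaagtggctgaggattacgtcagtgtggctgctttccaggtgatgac
Rab7: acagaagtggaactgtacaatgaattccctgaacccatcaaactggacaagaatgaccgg
The difference between the 2 genes was not itself tested.

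Rab34, which positions lysosomes and acts on macropinosomes, had the narrowest control spread of this role: 3.42, 3.42 and 3.43, against 3.33, 3.28 and 3.30 with ADP. Its ADP arrays were all lower, but the difference was -0.12 ± 0.091, with an unadjusted p of 0.221 by limma. Rab9, which returns mannose-6-phosphate receptors from late endosomes to the Golgi, had 3 kept probes with differences from -0.20 to -0.0043. Rab33b, a Golgi Rab that binds the autophagy protein Atg16l1, was the 1 gene of the role above 0, at 0.10 ± 0.10, and its second probe lay at -0.25 ± 0.13.

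Among the 7 recycling genes, 0 had an unadjusted p under 0.05 by limma, beside 12.7% of all features, and 3 lay above 0 and 4 below. Rab11 proteins mark the slow recycling endosome. Rab11a read 4.06, 3.95 and 4.13 in control and 4.12, 3.42 and 3.90 with ADP. ADP 2 was far below the rest and ADP 1 was among the controls, so the difference of -0.23 ± 0.19 was -0.034 without ADP 2, and it was 0.12 within slide 1 and -0.47 within slide 2. Rab11b was steadier, at 4.49, 4.37 and 4.41 in control and 4.29, 4.22 and 4.18 with ADP. Its groups did not overlap, with a difference of -0.19 ± 0.098, an unadjusted p of 0.0945 and an adjusted p of 0.495 by limma. The Rab11a probe is printed because 1 array carried its difference; it lies on the minus strand at mm9 chr9:64574530-64574589 and has a reading frame with no stop codon.
Rab11a: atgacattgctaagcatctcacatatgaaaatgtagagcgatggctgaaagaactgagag

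The smallest differences of the role were those of Rab14 and Rab35. Rab14, which shuttles between Golgi and early endosomes and is found on phagosomes, read 5.93, 5.82 and 5.80 in control and 5.86, 5.87 and 5.84 with ADP. Its difference was 0.0043 ± 0.095, with a 95% interval of -0.22 to 0.23. Rab35, a Rab of fast recycling at the plasma membrane, read 5.22, 5.23 and 5.32 in control and 5.25, 5.15 and 5.32 with ADP, a difference of -0.018 ± 0.10. Both genes had ADP arrays on both sides of the control mean. Rab15 differed in that its 3 ADP arrays, at -1.20, -1.23 and -1.24, all lay below the control arrays, at -1.04, -1.15 and -0.99. Rab15 is an endosomal Rab known mainly from neurons, and its difference of -0.16 ± 0.098 had an unadjusted p of 0.146 by limma. Rab4a and Rab4b, the Rabs of fast recycling from early endosomes, differed by 0.077 ± 0.13 and 0.042 ± 0.11.

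The Rab genes of the endoplasmic reticulum and Golgi were 11, with 6 above 0 and 5 below. Only 1 of the 11 (9.09%), Rab19, had an unadjusted p under 0.05 by limma, beside 12.7% of all features. Rab19, a Golgi Rab, read 1.54, 1.35 and 1.91 in control and 0.81, 1.40 and 0.99 with ADP. ADP 1 and ADP 3 lay below all controls, and ADP 2 just above control 2, so the groups overlapped. With means of 1.60 ± 0.28 and 1.07 ± 0.31 (SD, n = 3), the level was 1.45-fold lower with ADP, at a difference of -0.54 ± 0.21, an unadjusted p of 0.0400 and an adjusted p of 0.367 by limma. Within slide 1 the difference was -0.64 and within slide 2 it was -0.71.

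The paralogs of Rab6, which run traffic back through the Golgi, lay on opposite sides of 0. Rab6a, listed under its older name Rab6, read 4.25, 4.35 and 4.10 in control and 4.42, 4.32 and 4.50 with ADP. ADP 2 lay below control 2, so the groups overlapped, and the difference was 0.18 ± 0.11 (0.11 without control 3), with an unadjusted p of 0.166 by limma. The second Rab6a probe gave 0.36 ± 0.10 and an unadjusted p of 0.0116 in the fit of each probe, where 12.4% of all probes were under 0.05. Rab6b, the paralog known mainly from brain, read -0.22, -0.43 and -0.31 in control and -0.65, -0.45 and -0.70 with ADP. No ADP array reached a control array, although ADP 2 and control 2 were close, and the difference was -0.28 ± 0.12 with an unadjusted p of 0.0523 and an adjusted p of 0.399. The difference between the paralogs was not tested.

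Rab33a, an X-linked Golgi and vesicle Rab, had the second highest difference of all 47 Rab genes, 0.38 ± 0.27. It read -0.29, -0.26 and -1.04 in control and 0.23, -0.39 and -0.28 with ADP. Control 3 was far below the rest and ADP 1 far above, and the other 4 arrays were close together. The difference was therefore 0.13 without control 3, and the groups overlapped. Rab1a, on the array as Rab1, and Rab1b carry vesicles from the endoplasmic reticulum to the Golgi, and they differed by -0.042 ± 0.10 and 0.11 ± 0.22. Rab2a and Rab2b, which act in the same pathway, differed by -0.14 ± 0.13 and 0.14 ± 0.11. Rab18, known from lipid droplets, differed by -0.087 ± 0.16. Rab39 and Rab43 differed by 0.063 ± 0.18 and 0.086 ± 0.14, and the second Rab43 probe gave -0.013.

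The 11 genes of exocytosis and regulated secretion ran from -0.51 (Rab3a) to 0.40 (Rab3b), with 5 above 0 and 6 below. Only 1 of the 11 (9.09%), Rab8b, had an unadjusted p under 0.05 by limma, beside 12.7% of all features. Rab8 proteins carry vesicles from the Golgi to the plasma membrane and into the cilium. Rab8b read 5.31, 5.43 and 5.40 in control and 5.59, 5.64 and 5.81 with ADP. Every ADP array was above every control array, with means of 5.38 ± 0.07 and 5.68 ± 0.12 (SD, n = 3). The level was 1.23-fold higher with ADP, at a difference of 0.30 ± 0.11, an unadjusted p of 0.0304 and an adjusted p of 0.337 by limma, and 0.22 and 0.32 within slides 1 and 2. A second Rab8b probe lay at 0.13 ± 0.21. Rab8a differed by -0.0020 ± 0.20 on one probe and 0.00083 ± 0.11 on the other.

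Rab10, which moves Golgi and endosomal cargo to the plasma membrane and is related to Rab8, read 4.65, 4.61 and 4.24 in control and 4.80, 4.58 and 4.67 with ADP. Control 3 was the lowest array and the groups overlapped, at a difference of 0.18 ± 0.15 that was 0.056 without control 3, while a second Rab10 probe gave 0.25 ± 0.10 with an unadjusted p of 0.0533. The second Rab10 probe and the leading Rab8a probe are printed as an alike pair. Of the 2 kept Rab8a probes, this one was chosen for having the most bases that match this Rab10 probe. In the best ungapped alignment they share 39 positions, and 27 of these, or 69.2%, hold the same base, which the capitals mark. As probe and alignment were both chosen for likeness, this share does not measure how alike the 2 genes are. The Rab10 probe lies on the minus strand at mm9 chr12:3252628-3252687 and the Rab8a probe on the plus strand at chr8:74700227-74700286.
Rab10: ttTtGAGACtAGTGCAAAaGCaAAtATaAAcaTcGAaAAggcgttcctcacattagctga
Rab8a: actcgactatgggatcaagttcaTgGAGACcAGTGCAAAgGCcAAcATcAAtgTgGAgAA
How much each probe binds the transcript of the other gene was not tested.

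The Rab3 genes, known from secretory vesicles and granules, were all 4 measured. Rab3a, the Rab of synaptic vesicles, read 0.55, 0.39 and 1.18 in control and -0.05, 0.42 and 0.23 with ADP. ADP 2 lay between control 2 and control 1, so the groups overlapped, and the difference of -0.51 ± 0.24 had an unadjusted p of 0.0708 and an adjusted p of 0.448 by limma; without control 3, the highest array, it was -0.27. Rab3d, the Rab of secretory granules in exocrine and mast cells, had the same order of arrays: 2.07, 1.80 and 2.38 in control and 1.54, 1.87 and 1.76 with ADP. Control 2 was the low control and ADP 2 the high treated array, and the difference was -0.36 ± 0.18, with an unadjusted p of 0.0833; without control 3 it was -0.21. A second Rab3d probe, printed here as the other reading of this gene, gave -0.20 ± 0.16. It is on the minus strand at mm9 chr9:21719348-21719407.
Rab3d: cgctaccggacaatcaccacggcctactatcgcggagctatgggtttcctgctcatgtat
Rab3b and Rab3c lay on the other side. Rab3b read -5.17, -4.32 and -4.17 in control and -4.33, -4.15 and -3.99 with ADP, and only control 1 stood apart, the array on which it was not well above background. The difference was 0.40 ± 0.27, and it was 0.14 after normexp background correction and 0.089 without control 1. Rab3c differed by 0.27 ± 0.28 on one probe and by 0.046 ± 0.15 on another that shares 54 of its bases.

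Rab27a, which docks lysosome-related granules at the plasma membrane, read -2.83, -3.46 and -3.24 in control and -3.10, -3.60 and -3.82 with ADP. The groups overlapped and the difference of -0.33 ± 0.24 was 0.045 within slide 1 and -0.47 within slide 2. It was -0.10 after normexp background correction, and -0.53 to -0.16 without 1 array. The remaining secretory genes were Rab12, which sends cargo from recycling endosomes to lysosomes, at 0.0025 ± 0.11, Rab13, known from tight junctions, at -0.18 ± 0.21, and Rab37, known from mast cell granules, at -0.16 ± 0.25. The second Rab13 probe lay at 0.064.

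The 3 genes of lysosome-related organelles had 0 with an unadjusted p under 0.05 by limma, beside 12.7% of all features. Rab32, which with Rab38 builds melanosomes and in macrophages acts on vacuoles that hold bacteria, read 5.59, 5.53 and 5.83 in control and 5.58, 5.72 and 5.82 with ADP. The ADP arrays lay within the control range, at a difference of 0.059 ± 0.13. Rab38 read -2.25, -2.25 and -1.82 in control and -2.33, -2.10 and -2.49 with ADP, a difference of -0.20 ± 0.17. Control 3 was the highest array, and without it the difference was -0.056. Rab29, on the array as Rab7l1 and known as a partner of the kinase Lrrk2, differed by -0.041 ± 0.26.

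Rab38 had 2 probes that overlap by 23 bases and gave unlike readings. The one that was kept was well above background on 6 arrays, with a mean level of -2.21, and the other on 0 arrays, with a mean level of -6.43. The overlap lies on the plus strand at mm9 chr7:95639916-95639938 and is printed as the stretch that both probes hold. Being common to both, its bases cannot tell the 2 readings apart, and the cause of the unlike readings was not tested.
Rab38: gatatattatatatatttttcac
Over the whole sequences of the 66 kept Rab probes, not over such a part, the share of G and C ran from 35.0% to 55.0%, with a median of 41.7%.

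The last 3 genes belong to the primary cilium or to no single route. Rab28, a ciliary Rab, read 0.71, 0.84 and 0.70 in control and 1.04, 0.92 and 0.93 with ADP. All ADP arrays were above all control arrays, and the difference of 0.21 ± 0.10 had an unadjusted p of 0.0783 and an adjusted p of 0.463 by limma. Rab40c, which carries a SOCS box and serves in ubiquitin ligases, read 3.23, 3.15 and 3.65 in control and 3.13, 2.98 and 3.20 with ADP. Control 3 was the highest array, ADP 3 overlapped the controls, and the difference was -0.24 ± 0.16, or -0.091 without control 3. Rab23, an inhibitor of Hedgehog signalling, differed by 0.21 ± 0.21.

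**Figure D2:**
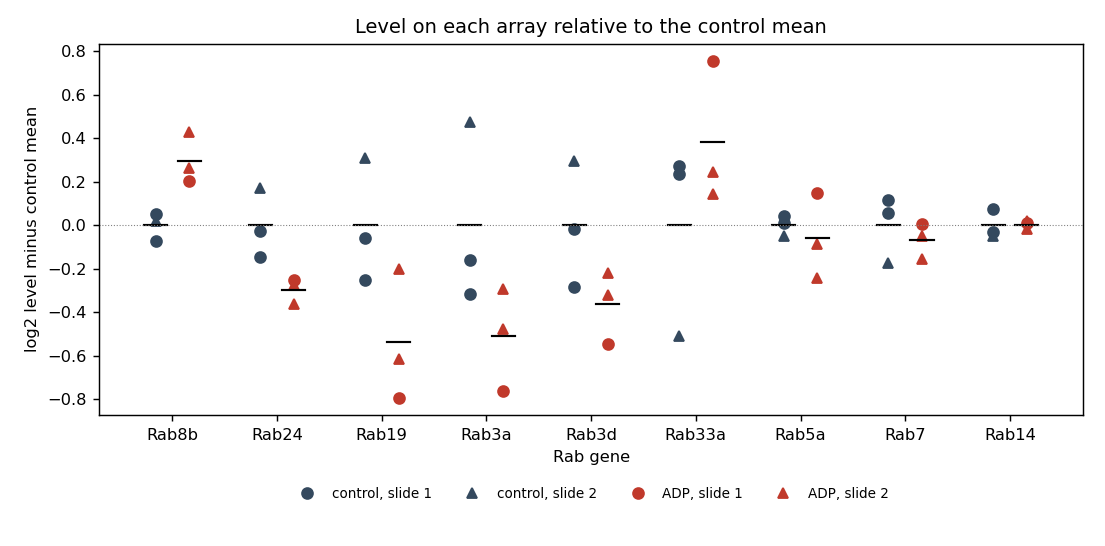
Log2 level on each array minus the control mean for 9 Rab genes, with controls in dark blue, ADP in red, slide 1 as circles and slide 2 as triangles; black bars are group means, n = 3. Rab8b and Rab24 do not overlap between groups, control 3 lies apart for Rab19, Rab3a, Rab3d and Rab33a, and Rab5a, Rab7 and Rab14 have overlapping groups, with differences of -0.059, -0.066 and 0.0043.

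Slide was a batch that held both groups, so each difference was also read within slides and with slide as a block. The sign was the same within both slides for 28 of 47 Rab genes (59.6%), beside 62.0% of all features. The median Rab difference was 0.0091 within slide 1 and -0.062 within slide 2, and -0.018 with the block. With slide as a block, 12 Rab genes (25.5%) had an unadjusted p under 0.05, beside 24.3% of all features, and these were 6 higher (10.8% of all features) and 6 lower (13.6%). The adjusted p of limma was under 0.05 for 0 of them and for 0.0% of all features; the smallest was 0.0735.

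With slide as a block and limma's trended robust variances, 1939 features (9.91%) had an adjusted p under 0.05, and 4 Rab genes (8.51%) were among them. These were Rab33a, the 1 higher gene (4.52% of all features), and Rab3a, Rab19 and Rab3d, the 3 lower ones (5.38%). In this fit the difference was -0.69 ± 0.11 for Rab3a (adjusted p = 0.0210), -0.68 ± 0.12 for Rab19 (adjusted p = 0.0215) and -0.48 ± 0.10 for Rab3d (adjusted p = 0.0263), and for Rab33a it was 0.60 ± 0.10 (adjusted p = 0.0210). Within slides 1 and 2 the differences were -0.52 and -0.86 for Rab3a, -0.40 and -0.57 for Rab3d, and 0.50 and 0.70 for Rab33a. Control 3 was the single control on slide 2 and the outermost control for all 4 genes. Repeating this fit without 1 array at a time left between 0 and 7 Rab genes under the threshold. The count was 0 without control 1, when 0 features of the whole array passed and the smallest adjusted p was 0.0548. It was also 0 without control 3 (97 features). It was 3 without ADP 3 (547 features), 4 without ADP 2 (1808), 5 without control 2 (1891) and 7 without ADP 1 (1661). The 4 genes kept their directions in all 6 of these fits. Those fits share most of their arrays with the fit that picked the genes. That fit also favours genes alike on both slides, so neither agreement is separate support.

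**Figure D3:**
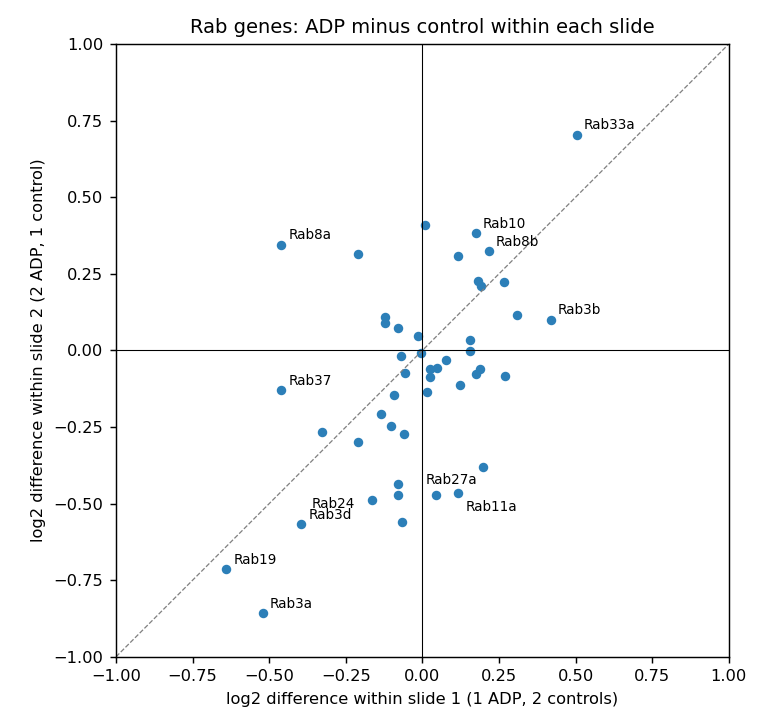
Log2 difference, ADP minus control, within slide 1 (horizontal, 1 ADP and 2 control arrays) and within slide 2 (vertical, 2 ADP and 1 control array) for each of the 47 Rab genes; the dashed line marks equal differences. Rab3a, Rab19, Rab3d and Rab33a lie far from 0 in the same direction on both slides, and Rab8a, Rab11a and Rab27a have opposite signs.

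Agreement between probes showed how far the reading of a gene depended on the probe. Probes of one gene were read on the same arrays, so their agreement does not measure the error between samples. Some also overlap, the 2 of Rab37 by 55 bases. Of the 47 genes, 31 had 1 kept probe and 16 had several, and the differences of several probes of one gene spanned 0.17 in the median, beside a median size of 0.14 for the difference of a Rab gene. Probes lay on opposite sides of 0 for 4 genes: Rab13, Rab33b, Rab43 and Rab8a. For 1 of the 16 genes, Rab6a, a probe other than the leading one had an unadjusted p under 0.05, and for Rab8b the leading one had.

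The cycle of a Rab is set by other proteins, and 114 of 127 listed genes for them were measured. At an unadjusted p under 0.05 there were 20 (17.5%), beside 12.7% of all features, 6 higher (6.55%) and 14 lower (6.18%), and 0 had an adjusted p under 0.05 by limma. Their median difference was -0.070, beside 0.0044 over all features. With median scaling 3 of the 114 were higher and 9 lower, beside 975 and 1015 of the 19575 features. In the value table, which is not scaled between arrays, the split was 4 higher and 3 lower, beside 1228 and 326. The medians in the value table were 0.0074 and 0.082. Over both directions together, the share of these genes under 0.05 in both settings was nearer to that of all features than in the main fit. The count of 20 became 5 without control 1, 4 without ADP 3 and 13 without ADP 1, fits for which no share over all features is given. The chaperones and prenylation enzymes that deliver and withdraw all Rabs had 0 of 8 under 0.05; among them Gdi2, a GDI chaperone, differed by 0.037 ± 0.15.

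The exchange factors, which switch Rabs on, had 9 of 32 under an unadjusted p of 0.05 (28.1%), beside 12.7% of all features, with 2 higher (6.55%) and 7 lower (6.18%). Of the 32, 0 were higher and 4 lower with median scaling, beside 975 and 1015 of the 19575 features. In the value table the split was 0 and 3, beside 1228 and 326. Over both directions together, the share of exchange factors under 0.05 in these settings was nearer to that of all features than in the main fit. This does not describe the lower direction alone, which held all of the exchange factors under 0.05 in both settings. With quantile normalization the split was 1 and 7, beside 1210 and 1353. The list holds Rab3gap1 and Rab3gap2, whose complex is an exchange factor for Rab18 and a GTPase-activating protein for Rab3. Dennd2c, of the DENN family, read -2.08, -2.46 and -2.14 in control and -2.69, -3.14 and -3.14 with ADP. Dennd2d of the same family read -0.16, -0.22 and 0.11 in control and -0.65, -0.58 and -0.91 with ADP. Neither gene overlapped between groups, all ADP arrays being lower, and the differences of -0.76 ± 0.18 and -0.62 ± 0.14 both had an adjusted p of 0.261 by limma. After normexp background correction that of Dennd2c was -0.41. Dennd1a, which activates Rab35, differed by -0.43 ± 0.15 and Sbf2 by -0.42 ± 0.14, both with separate groups. On the higher side, Dennd4a, which acts on Rab10, read 8.19, 8.18 and 8.33 in control and 8.48, 8.56 and 8.73 with ADP, a difference of 0.36 ± 0.11. Rab3ip, also called Rabin8 and the exchange factor of Rab8, read 0.71, 0.79 and 0.90 in control and 1.00, 1.16 and 1.31 with ADP. Its ADP arrays were all above the controls, which held for 9.67% of all features. The difference was 0.35 ± 0.12, with an adjusted p of 0.323 by limma. Rab3il1 of the same family, described further below, was lower with ADP, at -0.67 ± 0.24.

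The GTPase-activating proteins, which switch Rabs off, had 6 of 33 under an unadjusted p of 0.05 by limma (18.2%), beside 12.7% of all features. Of these, 2 were higher (6.55% of all features) and 4 lower (6.18%). Tbc1d20, which acts on Rab1 and Rab18, read 2.95, 3.00 and 2.87 in control and 3.30, 3.17 and 3.30 with ADP, without overlap and at a difference of 0.32 ± 0.10 (adjusted p = 0.301 by limma). The effectors had 5 of 41 (12.2%), near the share of all features, 2 higher and 3 lower. Mical1, an enzyme that oxidises actin and binds Rabs of the Rab8 group, read 2.92, 2.67 and 3.47 in control and 1.71, 2.66 and 2.04 with ADP. ADP 2 came just below control 2, so the groups did not overlap, and the difference of -0.88 ± 0.30 (adjusted p = 0.318) was the lowest of all 114 genes. The Rab11 effectors Rab11fip4 and Rab11fip1 lay on opposite sides, at -0.44 ± 0.13 and 0.73 ± 0.25, and at -0.18 and 0.34 after normexp background correction. With slide as a block and trended robust variances, 16 of the 114 genes (14.04%) had an adjusted p under 0.05, beside 9.91% of all features, and 10 of these were on the exchange factor list, Rab3gap2 included, 2 higher and 8 lower; as above, 0 features passed in that fit without control 1.

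**Figure D4:**
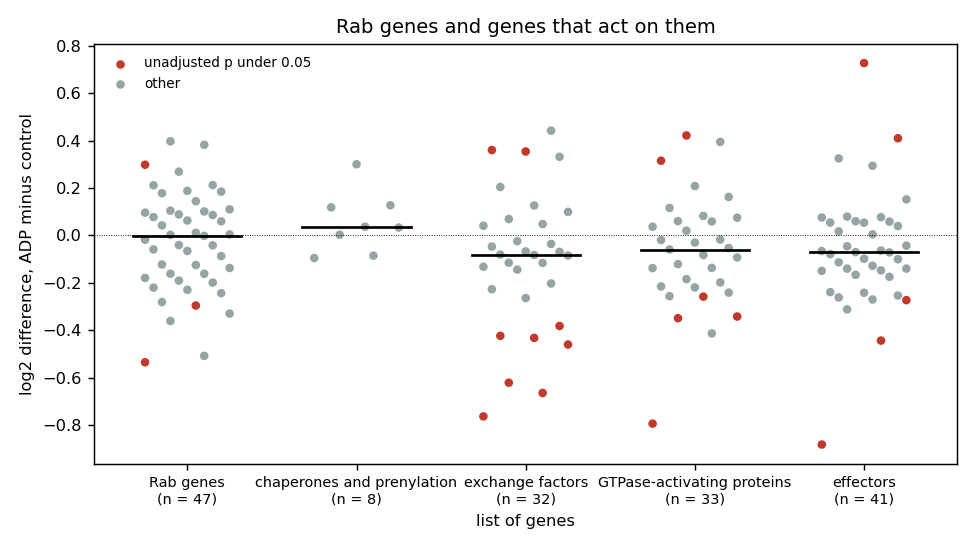
Log2 difference, ADP minus control, of the 47 Rab genes and of 114 genes that act on them, by class; each point is a gene, red marks an unadjusted limma p under 0.05, and black bars are medians. The Rab genes lie between -0.54 and 0.40 and the other genes between -0.88 and 0.73.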

How the data were processed

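The authors deposited 1 intensity per spot, made by Agilent Feature Extraction 10.7.1.1 with a one-colour protocol, per the file headers, with probe positions on mouse build mm9, and was not scaled between arrays. The deposited value table of the series held the same intensity within 0.001 log2 for 100% of probes.

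Here, control spots were left out, spots of a probe were averaged, and log2 signal was taken relative to each array's 75th percentile. Spots flagged as outliers were left out only where the probe had another spot on that array. A probe with no other spot kept its flagged value. Among the Rab probes only 1, of Rab5a, had several spots (10), so for the others no outlier could be removed. Probes well above background on all 3 arrays of a group were kept. The kept probe with the highest mean stood for its gene, and names were updated through a RefSeq table of GRCm38.p6. Groups were compared with limma 3.58.1 in R 4.3.3 over 19575 features, two-sided, with Benjamini-Hochberg adjustment and without a block; the smallest p that permuting 3 against 3 arrays can give is 0.1. The fit with slide as a block was tested on simulated data. Values on every array are given for the 16 Rab genes of smallest p and 14 fixed by name, 28 in all, and among the regulators the 10 of smallest p are named. The members, roles and lists were chosen with earlier results of these data known. Alternatives were another background correction, scaling, filter, probe rule and variance model, a block for slide or for replicate number, and fits without 1 array. Proteins, exon and UTR annotation were not used here. A few listed genes are not reported here.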

Additional observations from a re-analysis of the deposited data

How the results depend on the processing

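The number of Rab genes at an adjusted p under 0.05 was 0 under each alternative except slide as a block with trended robust variances, where it was 4; leaving out 1 array gave 0 without the block and 0 to 7 in that fit, the latter chosen after seeing the data. At an unadjusted limma p under 0.05 the 3 Rab genes became 0 with median scaling, beside 975 higher and 1015 lower of all 19575 features. They became 0 in the deposited value table, beside 1228 and 326. With slide as a block there were 12, beside 4759 features (24.3%). With that block and trended robust variances there were 16, beside 5111 (26.1%). The count was 1 with no filter on dim probes and 0 to 4 without 1 array, where no count over all features is given. The 20 regulators became 12 with median scaling and 7 in the value table. They became 31 and 35 with slide as a block without and with trended variances. The counts over all features in these 4 settings are those just given. Without 1 array the regulators became 4 to 16, again with no count over all features. Groups did not overlap for 8 Rab genes (17.0%), beside 19.4% of all features. Without 1 array they did not overlap for 10 to 16, fewer arrays making overlap less likely by construction, and no share over all features is given there. The median Rab difference was -0.044 with quantile normalization, 0.075 in the value table, -0.062 within slide 2 and -0.049 to 0.019 without 1 array; the median regulator difference was 0.0074 in the value table and -0.12 within slide 2. The value table is not scaled between arrays; the other causes were not tested.

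Same-numbered control and ADP arrays 1, 2 and 3 had correlations of deviations of 0.42, -0.40 and 0.43. Control 2 and ADP 2 lay on different slides. Control 2 with ADP 1 had 0.45 and control 3 with ADP 2 had 0.47, each pair on one slide. All pairs across slides were negative, so these values follow slide and cannot decide whether same numbers are pairs. The labels state no pairing, and the numbers were not taken as pairs. With replicate number as a block, 1 Rab gene had an unadjusted p under 0.05 by limma and 0 an adjusted one, with no share over all features given for that fit.

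Of 531 pairs of the 28 genes and a setting, 495 kept the direction and side of the threshold, 4 passed it (slide block with trended variances) and 32 changed sign, all for genes with differences of at most 0.33 in size. These were Rab11a (0.12), Rab27a (0.045), Rab35 (0.025), Rab5a (0.12), Rab5b (-0.12) and Rab14 (-0.013) within slide 1; Rab20 (-0.077), Rab32 (-0.062), Rab5c (-0.00053) and Rab7 (0.072) within slide 2; Rab32 (-0.018), Rab5a (0.0053) and Rab5b (-0.018) with slide as a block; Rab35 (0.059), Rab5a (0.018) and Rab7 (0.012) in the value table; Rab14 (-0.056) and Rab5b (-0.0013) with quantile normalization; and Rab14 (-0.021) and Rab5b (-0.015) with median scaling. Without 1 array, Rab14 ran from -0.019 to 0.042, Rab22a from -0.036 to 0.23, Rab32 from -0.0020 to 0.15, Rab35 from -0.057 to 0.027, Rab5a from -0.16 to 0.031 and Rab5b from -0.065 to 0.075. The number of arrays limits the precision.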

Other observations

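Rab44 is a large, atypical Rab known from immune cells, and its number lies above those of the genes described; it is given here as a gene chosen after its values were seen. It read -0.065, 0.55 and -1.25 on control arrays 1 to 3 and 1.60, 0.80 and 1.66 on ADP arrays 1 to 3. Every ADP array was above every control array, although control 3 was far below the other controls. The difference was 1.61 ± 0.48 (SE), a 3.05-fold higher level with ADP, with an unadjusted p of 0.0134 and an adjusted p of 0.287 by limma. It was 1.36 within slide 1 and 2.48 within slide 2, and 1.11 to 2.01 without 1 array. With slide as a block and trended robust variances its adjusted p was 0.0224. Rab7b, a late endosome Rab on the array under a clone name, differed by 0.038 ± 0.28, and Rab42 by -0.30 ± 0.15.

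Genes that act on Rab3, named after their values were seen, lay on both sides of 0, as the Rab3 genes themselves did. Rab3il1, an exchange factor of the same family as Rab3ip, read 4.36, 4.22 and 5.01 in control and 3.61, 4.07 and 3.92 with ADP, all ADP arrays being lower, at a difference of -0.67 ± 0.24 and an adjusted p of 0.332 by limma. Madd, the DENN exchange factor of Rab3, had overlapping groups and a difference of 0.33 ± 0.23. Rab3gap1 and Rab3gap2, subunits of a complex that inactivates Rab3 and activates Rab18, were listed with the exchange factors, and they differed by -0.085 ± 0.12 and -0.23 ± 0.15.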
